A study of Glycine max with 63 samples.

Results

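Seed lectin LE1 (GLYMA_02G012600) and P34 (GLYMA_08G116300) are 2 of the 55,899 named rows in each table of a soybean RNA sequencing series. Both were chosen as genes for seed proteins and were followed across all 63 libraries. Both passed the filter on low counts in the field and in the greenhouse. The pairing of these identifiers with the names LE1 and P34 was given with the choice of genes. It could not be checked here, because 0 identifiers of the tables matched the 59,048 genes of the RefSeq table used for names. For the same reason no sequence or position is given for either gene, and tissue markers could not be looked up.

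LE1 encodes soybean agglutinin, a legume lectin that binds N-acetylgalactosamine and is stored in the protein storage vacuoles of the cotyledons. It is a textbook case of a plant gene transcribed mainly in the maturing embryo. P34, also called Gly m Bd 30K, belongs to the papain family of cysteine proteases, but the catalytic cysteine is replaced by glycine. It is carried to the same vacuoles and is a major soybean allergen in people with soybean sensitivity. Both proteins build up while the seed fills, beside the more abundant storage globulins.

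The labels put the libraries in 21 groups of 3. In the field, bulked seeds of the labelled lines W-1 and WD-1 and of the untransformed cultivar Thorne (WT) were taken at the stages R5, R5/6 and R6, where R5 marks the start of seed filling and R6 the full-sized green seed. In the greenhouse, the samples were peeled embryos labelled WD-1, WD-2 and WT (Thorne), with labelled ages of 24, 27, 30 and 33 days after pollination (DAP). Per the title of the series, the transgenes were Arabidopsis WRI1, which switches on genes for making fatty acids, and DGAT1, which adds the final fatty acid to form storage oil. The tables hold these transgenes as the rows AtWRI1 and AtDGAT. The labels and protocols do not name the promoters or say what sets W-1 apart from WD-1. The protocols describe homozygous events of the T4 and T5 generations. A field library pooled RNA of 4 genotyped seeds of a plot, whereas each embryo in the greenhouse gave its own library, from separate plants. No test set whole seeds against peeled embryos.

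Library totals lay between 1.17 and 36.2 M counts in the field (M for 1,000,000), where 10 of 27 were below 10 M, and between 3.02 and 23.6 M in the greenhouse, where 5 of 36 were. In the field the transgene rows followed the labels. AtWRI1 was above 1 count per 1,000,000 (CPM) in every W-1 and WD-1 library and below 1 CPM in every WT library. AtDGAT was at 0 in every W-1 and WT library and between 0.20 and 33.2 CPM in the WD-1 libraries. In the greenhouse the transgene rows did not follow the labels. The names of the deposited tables carry a letter (Wt, G or R) and a time code (T2 to T5) that the labels do not explain, and AtWRI1 above or below 1 CPM went against the labelled genotype in 13 of 36 libraries but against the letter in 1. That library is G T5 replicate 2, with 0 AtWRI1 counts. Labels and table names agreed on which 3 libraries form each of the 12 sets, so levels per set do not depend on the naming. Greenhouse comparisons are given by letter and time code, and then by label. The sets Wt T2, T3, T4 and T5 are labelled WT 24 DAP, WD-1 24 DAP, WD-2 24 DAP and WT 27 DAP. The sets G T2 to T5 are labelled WD-1 27 DAP, WD-2 27 DAP, WT 30 DAP and WD-1 30 DAP, and the sets R T2 to T5 are labelled WD-2 30 DAP, WT 33 DAP, WD-1 33 DAP and WD-2 33 DAP.

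The R libraries also stood apart in composition. Their most abundant row took 8.32% to 40.4% of counts (median 34.8%), against 4.50% to 16.7% in the G libraries and 6.18% to 16.6% in the Wt libraries. Levels below are therefore CPM after TMM normalization, which scales libraries so that most genes match. The TMM factor was 0.344 to 1.32 in R libraries (median 0.490), 1.04 to 2.03 in G libraries and 1.10 to 1.68 in Wt libraries. Where the choice of scaling changes a call, this is said beside it.

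In field seeds both transcripts were low at R5 and abundant at R6, in WT and in both lines. LE1 in WT averaged 477 ± 554 CPM at R5, rose to 7434 ± 1520 CPM in R5/6 seeds and lay at 12519 ± 1304 CPM at R6 (mean ± SD, n = 3 libraries at each stage, as for all means below). P34 in WT averaged 138 ± 231 CPM in R5 seeds, 21835 ± 8742 CPM in R5/6 seeds and 54330 ± 4719 CPM in R6 seeds. The P34 row took up to 4.44% of all counts in an R6 library and as little as 0.000362% in an R5 library. No R5 library of any genotype reached the P34 level of the lowest R6 library.

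The WT libraries showed these steps one by one. LE1 had 119, 1115 and 196 CPM at R5, 6011, 7254 and 9036 CPM at R5/6, and 12371, 11295 and 13890 CPM at R6. P34 had 2.55, 404 and 6.49 CPM at R5, 14081, 20116 and 31309 CPM at R5/6, and 59622, 50559 and 52809 CPM at R6. For both genes the 3 stages did not overlap, and replicate 2 was the highest WT library at R5 by a wide margin. Behind the lowest P34 value at R5 stood 131 counts of 36.2 M, so it was measured well above the limit that a count of 0 allows.

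**Figure D1:**
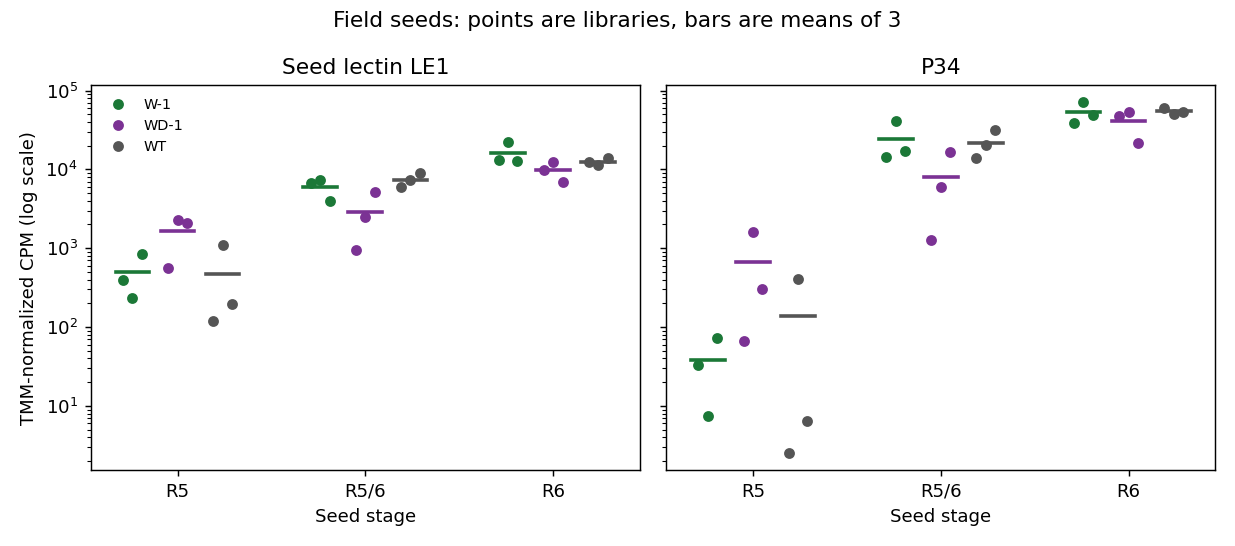
TMM-normalized CPM (log scale) of LE1 and P34 in each field library by seed stage, for W-1, WD-1 and WT. Points are libraries and bars are means of 3. Both genes were low at R5, with P34 between 2.55 and 1610 CPM, and high at R6, with P34 between 21358 and 70587 CPM.

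From R5 to R5/6 both genes rose in WT. LE1 in R5/6 seeds exceeded the R5 level by 3.96 ± 0.76 (log2 fold change ± SE, 15.6-fold, adjusted p = 0.000501), and P34 by 7.31 ± 1.55 (159-fold, adjusted p = 0.00127). The test was edgeR's quasi-likelihood F-test over 38,914 genes with Benjamini-Hochberg adjustment, and 23.7% of genes passed the threshold of 0.05 in this comparison. Without WT R5 replicate 2 the differences were larger, 5.56 for LE1 and 12.24 for P34, so the size of the first step rests largely on that library.

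The further step between R5/6 and R6 in WT did not pass the same test. LE1 was 0.75 ± 0.68 higher at R6 than at R5/6 (adjusted p = 0.564) and P34 1.32 ± 1.20 (adjusted p = 0.569), while 7.07% of genes passed. The libraries of these stages did not overlap for either gene. Over the whole interval from R5 to R6, LE1 rose in WT by 4.72 ± 0.79 (26.3-fold, adjusted p = 5.82e-05) and P34 by 8.62 ± 1.64 (394-fold, adjusted p = 0.000243), with 33% of genes called. Without WT R5 replicate 2 these rises were 6.31 for LE1 and 13.55 for P34, so their size rests on that library too.

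W-1 seeds followed the same course. LE1 had 395, 235 and 853 CPM at R5, 6787, 7295 and 3933 CPM at R5/6, and 13169, 22051 and 12859 CPM at R6. P34 had 33.5, 7.45 and 72.3 CPM at R5, 14199, 40579 and 17057 CPM at R5/6, and 39144, 70587 and 48609 CPM at R6. Again no library of one stage overlapped the next, except that P34 in R5/6 replicate 2 passed the lowest R6 library. From R5 to R6, LE1 rose in W-1 by 5.02 ± 0.80 (adjusted p = 2.01e-05) and P34 by 10.45 ± 1.77 (adjusted p = 4.11e-05), with 41.1% of genes called.

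WD-1 seeds were more scattered at R5/6. LE1 had 554, 2272 and 2081 CPM at R5, 949, 2476 and 5102 CPM at R5/6, and 9768, 12551 and 6973 CPM at R6. P34 had 67.5, 1610 and 305 CPM at R5, 1284, 6011 and 16624 CPM at R5/6, and 47388, 54016 and 21358 CPM at R6. Here R5 and R5/6 overlapped for both genes, whereas R6 stood above both. From R5 to R6, LE1 rose in WD-1 by 2.58 ± 0.72 (adjusted p = 0.00642) and P34 by 5.95 ± 1.46 (adjusted p = 0.00245), with 35.6% of genes called. With the libraries above 10 M counts alone, which leave 1 WD-1 library at R6, the P34 rise was 6.00 and its adjusted p was 0.0567.

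Set against WT at the same stage, no difference of a line in LE1 or P34 passed the test in the field. None of the 22 tests (11 comparisons for each gene, those between the lines and of stage differences included) passed with edgeR, 2 had an unadjusted p under 0.05, and DESeq2 called 0. For W-1 against WT, 0.0385%, 0.123% and 4.44% of all genes passed at R5, R5/6 and R6, 2.53% over stages and 1.69% for the change of the effect between R6 and R5. For WD-1 against WT the shares were 0.177%, 1.7% and 3.24%, then 3.05% and 1.22%, and 0.555% passed between WD-1 and W-1. The intervals are wide: over the 3 stages the W-1 effect was 0.03 ± 0.39 for LE1 and -0.59 ± 0.68 for P34, and the WD-1 effect was 0.01 ± 0.39 for LE1 and 0.13 ± 0.68 for P34 (log2 ± SE).

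WD-1 gave the line differences farthest from 0 at R5 and R5/6. LE1 was 1.78 ± 0.69 higher in WD-1 than in WT at R5 (unadjusted p = 0.0166, adjusted p = 0.562) and 1.39 lower at R5/6 (log2 fold change -1.39 ± 0.69, adjusted p = 0.373). P34 had log2 fold changes of 2.26 ± 1.24 at R5 and -1.45 ± 1.20 at R5/6 (adjusted p = 0.749 and 0.664). WT R5 replicate 2 decides the first of these: without it, WD-1 exceeded WT at R5 by 3.38 for LE1 (adjusted p = 0.0217) and by 7.19 for P34 (adjusted p = 0.0106). Without it the change of the WD-1 effect between R6 and R5 passed too, at -3.73 for LE1 (adjusted p = 0.0227) and -7.60 for P34 (adjusted p = 0.00872), against -2.14 (adjusted p = 0.374) and -2.67 (adjusted p = 0.591) with all libraries. With each library left out in turn, the R5 difference ran from 1.32 to 3.38 for LE1 and from 0.43 to 7.19 for P34. WD-1 R5 replicate 2 had 1610 CPM of P34, against 67.5 and 305 CPM in the other WD-1 libraries of that stage. When WD-1 R5 replicate 2 was left out, the P34 effect of WD-1 over stages was -0.48, against 0.13 with all libraries.

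Ranked by mean level, the 9 field groups ordered by stage. For LE1 the order from low to high was WT R5, W-1 R5, WD-1 R5, WD-1 R5/6, W-1 R5/6, WT R5/6, WD-1 R6, WT R6 and W-1 R6. For P34 it was W-1 R5, WT R5, WD-1 R5, WD-1 R5/6, WT R5/6, W-1 R5/6, WD-1 R6, W-1 R6 and WT R6. For each gene all 8 pairs of neighbours in this order overlapped in their libraries. Groups of a stage that were not neighbours did not always overlap. For LE1 at R5/6, WD-1 libraries (949 to 5102 CPM) lay below WT libraries (6011 to 9036 CPM), a difference that did not pass the test. At R6 the highest WD-1 library had 12550.6 CPM of LE1 and the lowest W-1 library 12859.5 CPM. The lines were not tested against each other at single stages.

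Library depth was uneven over the stages, with 2 of 9 libraries below 10 M counts at R5, 3 at R5/6 and 5 at R6. At R6 the libraries below 10 M spanned 21358 to 59622 CPM of P34 and those above 10 M spanned 39144 to 70587 CPM. The part of depth in the results was not tested beyond the fits without the shallow libraries.

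The balance between both genes shifted with the stage. The log2 ratio of LE1 counts to P34 counts within a library does not depend on scaling, although it is not a ratio of levels per gene length. It averaged -1.95 ± 0.28 at R6 and 3.37 ± 1.66 at R5 (n = 9 libraries each, over the 3 genotypes). The difference was -5.32 on the log2 scale, a 39.9-fold shift toward P34 (two-sided exact permutation test within genotypes, p = 0.00025, the smallest it can give, adjusted p = 0.00075 over 6 ratio tests). The shift was -5.76 in W-1, -4.10 in WD-1 and -6.09 in WT, and no R5 library overlapped the R6 libraries.

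Within R5 the ratio itself spread from 0.50 in WD-1 replicate 2 to 5.54 in WT replicate 1. WD-1 replicate 2 and WT replicate 2, with ratios of 0.50 and 1.46, had the 2 highest P34 levels at R5, 1610 and 404 CPM. P34 is the divisor of the ratio, so low ratios at high P34 levels follow in part from its definition. WD-1 replicate 3, with 2081 CPM of LE1, had a ratio of 2.77. Between genotypes the ratio did not pass the test. It was 0.02 higher in W-1 than in WT (adjusted p = 0.969) and 0.47 lower in WD-1 (difference -0.47, adjusted p = 0.817; exact permutation test within stages).

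In greenhouse embryos both genes were already abundant at the first time code. LE1 lay between 2214 and 8844 CPM and P34 between 5588 and 30771 CPM over all 36 libraries. In bulk RNA a change in the share of cells that express a gene and a change of its RNA per cell cannot be told apart.

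In the Wt sets LE1 was lowest at T2 and higher at the later time codes. It had 4043, 3617 and 3652 CPM at T2, 5389, 6659 and 6363 CPM at T3, 6624, 6707 and 8844 CPM at T4, and 7526, 6344 and 7758 CPM at T5. All T3, T4 and T5 libraries lay above all T2 libraries, and the later codes overlapped one another. LE1 was 0.94 ± 0.24 higher at T5 than at T2 (1.91-fold, adjusted p = 0.00331), with 28% of 34,548 genes called. The step from T2 to T3 was 0.70 ± 0.24 (adjusted p = 0.0475, 12.3% of genes called). It lost its call with total counts as the only scaling (0.52, adjusted p = 0.759), without the filter on low counts (adjusted p = 0.0974) and with libraries above 10 M counts alone (adjusted p = 0.0983). The call also ended when either of 2 T3 libraries or any of the 3 T2 libraries was left out (adjusted p up to 0.163).

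P34 in the Wt sets had 15112, 14857 and 15310 CPM at T2, 19029, 22162 and 21954 CPM at T3, 23334, 23992 and 29660 CPM at T4, and 25653, 22533 and 27459 CPM at T5. The T2 libraries again lay below all others. Yet the T5 level was 0.74 ± 0.30 above T2 with an adjusted p of 0.063, short of the threshold in the shared model. It passed with DESeq2 (0.71, adjusted p = 0.0140) and with a fit of the compared libraries alone (0.71, adjusted p = 0.0195). From T3 to T4 and from T4 to T5 neither gene passed, with differences between -0.04 and 0.29, while 2.12% and 0.00868% of genes were called. With total counts as the only scaling, LE1 at T5 against T2 in Wt was 0.63 and lost its call (adjusted p = 0.376), in a setting where the median over all genes lay at -0.29.

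**Figure D2:**
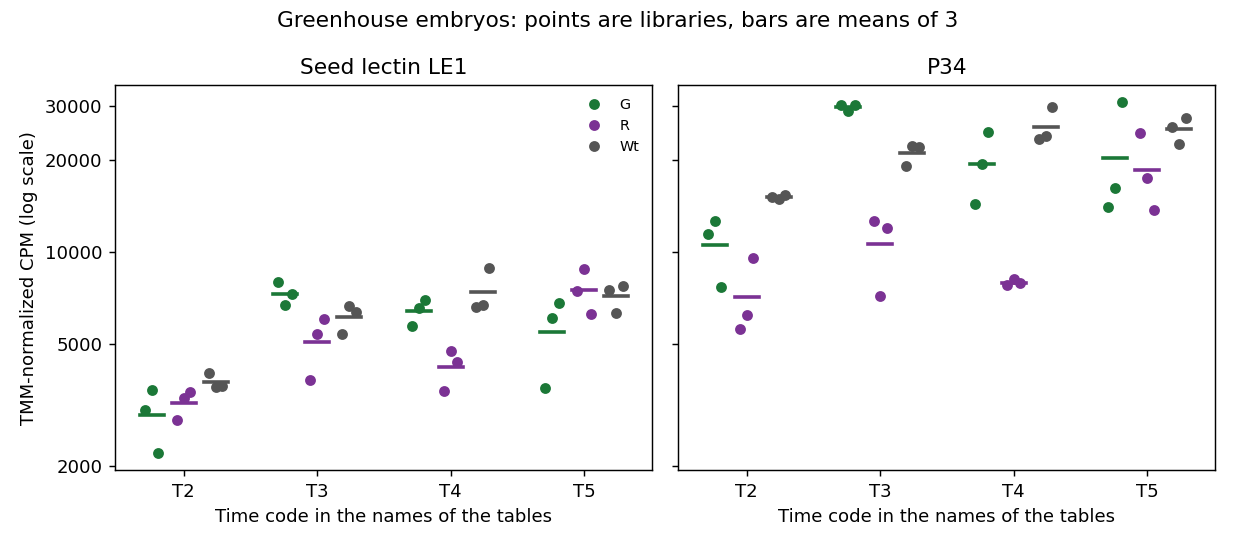
TMM-normalized CPM (log scale) of LE1 and P34 in each greenhouse library by time code, for G, R and Wt. Points are libraries and bars are means of 3. P34 in R libraries lay below all Wt libraries at T2, T3 and T4, while LE1 overlapped at T3 and T5.

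The G embryos, which carried AtWRI1 reads in 11 of 12 libraries, showed no difference from Wt that passed the test in either gene. LE1 had 3055, 3536 and 2214 CPM at T2, 7981, 6704 and 7273 CPM at T3, 5737, 6546 and 6997 CPM at T4, and 3603, 6091 and 6809 CPM at T5. P34 had 11416, 12588 and 7689 CPM at T2, 30077, 28938 and 30283 CPM at T3, 14393, 19374 and 24555 CPM at T4, and 14032, 16203 and 30771 CPM at T5. In both genes the G sets peaked at T3 and not at the last code, and T5 replicate 3 stood far above the other T5 libraries for P34.

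Against Wt none of the 12 tests of G passed with edgeR, 0 had an unadjusted p under 0.05, and DESeq2 called 0. Of all genes, 46.5% were called in the comparison averaged over T2 to T5, 10.1%, 21.3%, 27.7% and 32.5% at T2, T3, T4 and T5, and 7.25% for the change of the effect between T5 and T2. That average was -0.17 ± 0.12 for LE1 and -0.18 ± 0.15 for P34 (adjusted p = 0.233 and 0.335). P34 at T3 was 0.50 ± 0.30 higher in G, with an adjusted p of 0.258 in the shared model and of 0.00468 when the compared libraries alone were fitted. All G libraries lay above all Wt libraries at T3 for both genes, for LE1 narrowly (lowest G 6704 CPM, highest Wt 6659 CPM). At T2 they lay below all Wt libraries for both genes, with log2 fold changes of -0.36 ± 0.24 for LE1 and -0.51 ± 0.30 for P34 (adjusted p = 0.396 and 0.323).

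Between T5 and T2 both genes were higher in G. LE1 rose by 0.91 ± 0.24 (1.87-fold, adjusted p = 0.00478) and P34 by 0.94 ± 0.30 (1.92-fold, adjusted p = 0.0193), with 24.6% of genes called. The P34 call rested on single libraries: the rise was 0.52 without T5 replicate 3 (adjusted p = 0.231) and 0.77 without T2 replicate 3 (adjusted p = 0.11). Leaving out G T5 replicate 2, the library without AtWRI1 counts, gave 1.09 for P34 (adjusted p = 0.0154). Both calls ended with total counts as the only scaling, at 0.57 for LE1 (adjusted p = 0.439) and 0.60 for P34 (adjusted p = 0.538), and in a fit of the compared libraries alone (adjusted p = 0.125 and 0.229).

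The R embryos differed from Wt in P34 more than in LE1. P34 had 5588, 6219 and 9531 CPM at T2, 12646, 7193 and 11939 CPM at T3, 7784, 8161 and 7904 CPM at T4, and 24426, 17407 and 13686 CPM at T5. At T2, T3 and T4 every R library lay below every Wt library, and at T5 the sets overlapped. Averaged over T2 to T5, P34 was 1.05 ± 0.15 lower in R than in Wt on the log2 scale (log2 fold change -1.05, 2.08-fold lower, adjusted p = 3.33e-07), in a comparison that called 60.6% of all genes.

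By time code the P34 difference was -1.09 ± 0.30 at T2 (adjusted p = 0.00987, 20% of genes called), -0.99 ± 0.30 at T3 (adjusted p = 0.0126, 29.4%) and -1.69 ± 0.31 at T4 (adjusted p = 4.24e-05, 40.9%). At T5 it was -0.45 ± 0.30 and did not pass (adjusted p = 0.257, 35%). Single libraries decided the first calls. At T2 the adjusted p was 0.0694 without R replicate 1 and 0.0595 without R replicate 2, and at T3 it was 0.0996 without R replicate 2 and 0.0561 when the compared libraries alone were fitted. The change of the effect between T5 and T2, 0.64 ± 0.42, did not pass (adjusted p = 0.494, 3.38% of genes called), so the smaller difference at T5 is not shown to differ from that at T2.

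LE1 in R embryos had 2830, 3335 and 3499 CPM at T2, 3821, 5418 and 6045 CPM at T3, 3525, 4770 and 4369 CPM at T4, and 7476, 8820 and 6284 CPM at T5. The R libraries lay below the Wt libraries at T2 and T4, and the sets overlapped at T3 and T5. At T4 LE1 was 0.81 ± 0.24 lower in R (log2 fold change -0.81, adjusted p = 0.00678), a call that ended without R T4 replicate 1 (-0.65, adjusted p = 0.0635). At T2, T3 and T5 the LE1 differences were -0.23, -0.27 and 0.06 and did not pass (adjusted p = 0.550, 0.421 and 0.869), although with total counts as the only scaling T2 and T3 passed and T5 turned to -0.59 without passing. Averaged over T2 to T5, LE1 was 0.31 ± 0.12 lower in R (log2 fold change -0.31, adjusted p = 0.0238). That call ended without R T4 replicate 1, R T2 replicate 1, R T5 replicate 3 or Wt T5 replicate 3 (adjusted p up to 0.0646), and with libraries above 10 M counts alone (-0.25, adjusted p = 0.0968).

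**Figure D3:**
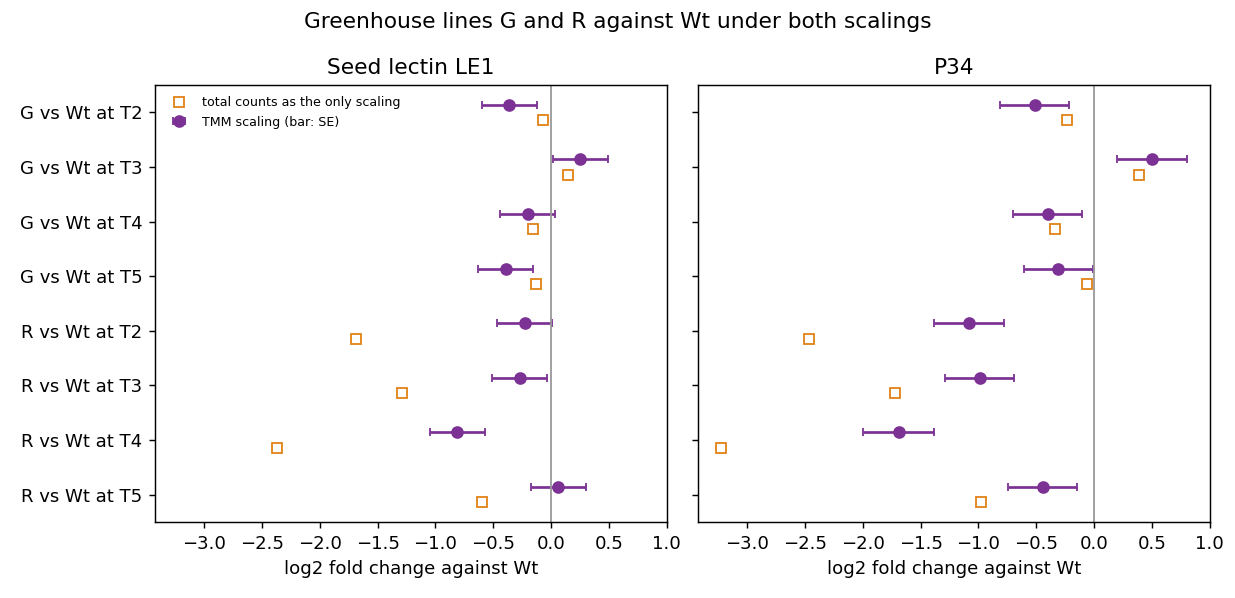
Log2 fold change of LE1 and P34 in G and in R against Wt at each time code, under TMM scaling (filled points, bars are SE) and with total counts as the only scaling (open squares). For P34 in R the values lay between -1.69 and -0.45 under TMM scaling and were lower still with total counts, while for G they lay on both sides of 0.

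Scaling matters for R because few rows took much of its counts. The 10 most abundant rows took a median of 71.8% of counts in R libraries, 31.2% in G and 33.8% in Wt. TMM scaling rests on most genes being alike between libraries. Under it 60.6% of genes were called in R against Wt over T2 to T5, so how well it holds for R is uncertain. With total counts as the only scaling, the median over all genes in R against Wt moved to -1.25, against -0.06 under TMM scaling. Over all genes this scaling called 1075 higher and 29,858 lower in R, against 9627 higher and 11,304 lower under TMM scaling. Relative to that median, P34 in R was -0.85 with total counts and -0.99 under TMM scaling, and LE1 was -0.24 and -0.25. The direction of both genes was thus the same relative to the bulk of genes. Within the R sets the library with the smallest share for its most abundant row had the highest P34 level at T2 (27.9%, replicate 3), T3 (11.3%, replicate 1) and T5 (8.32%, replicate 1). At T4 the library with the smallest share (35.5%, replicate 1) had the lowest P34 level. The part of this composition in the P34 difference was not tested.

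In R embryos both transcripts were also higher at the last time code than at the first. The course between them was not steady. Mean LE1 was 5094 CPM at T3 and 4221 CPM at T4, and mean P34 was 10593 and 7949 CPM. LE1 was 1.22 ± 0.24 higher at T5 than at T2 (2.34-fold, adjusted p = 0.000692) and P34 1.38 ± 0.30 higher (2.60-fold, adjusted p = 0.00217), with 14.6% of genes called. All T5 libraries lay above all T2 libraries for both genes, and both calls held with total counts as the only scaling (1.73 and 1.92). Against G, averaged over T2 to T5, P34 was 0.87 ± 0.15 lower in R (log2 fold change -0.87, adjusted p = 2.77e-05, 37.5% of genes called). LE1 in R against G was -0.14 ± 0.12 and did not pass (adjusted p = 0.391). With total counts as the only scaling it was -1.43 and passed (adjusted p = 1.57e-08), where the median over all genes lay at -1.36.

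The ratio within libraries showed the same contrast without any scaling. The log2 ratio of LE1 to P34 counts averaged -1.09 ± 0.38 in R and -1.85 ± 0.11 in Wt (n = 12 libraries each). It was 0.76 higher in R, a 1.70-fold shift toward LE1 (two-sided exact permutation test within time codes, p = 1.25e-05, the smallest it can give, adjusted p = 7.5e-05 over 6 ratio tests). The shift was 0.89 at T2, 0.74 at T3, 0.88 at T4 and 0.54 at T5, and all 12 R libraries lay above all 12 Wt libraries. The 2 nearest, T3 replicate 1 at -1.727 and T5 replicate 1 at -1.708, lay just above the highest Wt library (-1.735). These are also the R libraries with the smallest shares for their most abundant row, and the part of that share in the ratio was not tested.

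In G the ratio averaged -1.82 ± 0.27, 0.03 above Wt (adjusted p = 0.969). Over the 3 letters it averaged -1.64 ± 0.39 at T5 and -1.65 ± 0.44 at T2, a difference of 0.01 (adjusted p = 0.969). This average joins strata of opposite sign: the T5 minus T2 difference was -0.01 in G, -0.16 in R and 0.20 in Wt, where all T5 libraries lay above all T2 libraries.

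**Figure D4:**
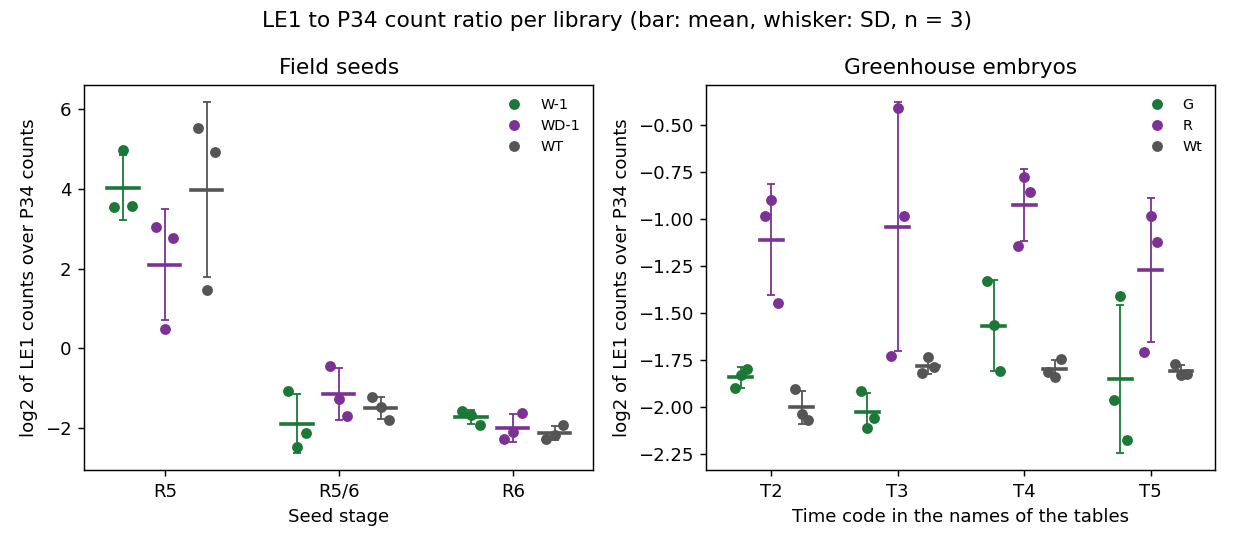
Log2 ratio of LE1 counts to P34 counts in each library, by field stage for W-1, WD-1 and WT, and by greenhouse time code for G, R and Wt. Points are libraries, bars are means and whiskers are SD of 3. The field ratio averaged -1.95 at R6 and 3.37 at R5, and the R embryos averaged -1.09 while Wt averaged -1.85.

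Ranked by mean level, the 12 greenhouse sets mixed letters and time codes. LE1 was lowest in G T2 (2935 ± 669 CPM), R T2 (3221 ± 349) and Wt T2 (3771 ± 236), and highest in R T5 (7527 ± 1269), Wt T4 (7392 ± 1258) and G T3 (7319 ± 640). P34 was lowest in R T2 (7113 ± 2118 CPM), R T4 (7949 ± 193) and G T2 (10564 ± 2558), and highest in G T3 (29766 ± 725), Wt T4 (25662 ± 3478) and Wt T5 (25215 ± 2492). Neighbours in these orders overlapped in 10 of 11 pairs for LE1 and in 9 of 11 for P34. The P34 breaks fell between R T3 and Wt T2 and between Wt T3 and Wt T5.

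By label the same levels gave other contrasts. At 27 DAP, the day at which labels and AtWRI1 reads went together, LE1 in libraries labelled WD-1 was 1.30 ± 0.24 lower than in those labelled WT (log2 fold change -1.30, adjusted p = 5.26e-05, 40.4% of genes called), and P34 was 1.26 ± 0.30 lower (log2 fold change -1.26, adjusted p = 0.00119). By table name this sets G T2 against Wt T5, so the time codes differ as well. Both calls ended with total counts as the only scaling (-0.70, adjusted p = 0.180 for LE1, and -0.66, adjusted p = 0.323 for P34).

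Libraries labelled WD-2 at 27 DAP did not differ from WT past the threshold. LE1 was 0.02 ± 0.24 and P34 0.24 ± 0.30 higher (adjusted p = 0.965 and 0.628, 24.3% of genes called). By table name this sets G T3 against Wt T5. Averaged over the 4 labelled days, none of 4 tests (2 genes in WD-1 and in WD-2 against WT) passed with edgeR (3.38% and 3.7% of all genes did), 1 had an unadjusted p under 0.05, and DESeq2 called 0. The averages were -0.27 ± 0.12 for LE1 and -0.28 ± 0.15 for P34 in labelled WD-1, and 0.14 ± 0.12 and 0.09 ± 0.15 in labelled WD-2. Both sides of these averages joined libraries above and below 1 CPM of AtWRI1. Mean AtWRI1 was 271 CPM in labelled WT at 30 DAP and 130 CPM at 33 DAP. At 24 DAP it was 0.30 CPM in labelled WD-1 and 0.017 CPM in labelled WD-2. The averages therefore do not compare embryos with and without the transgene.

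The levels of both genes correlated across libraries. The Pearson correlation of their log2 levels was 0.978 over the 27 field libraries and 0.790 over the 36 greenhouse libraries. These are descriptions, since the libraries share stages and groups. Among 14,675 genes ranked by the lower of both correlations, P34 came at rank 119 for LE1, and LE1 at rank 175 for P34.

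The closest pattern to LE1 was that of GLYMA_13G223700, with correlations of 0.970 in the field and 0.945 in the greenhouse. Its level in field WT was 17.4 ± 21.2 CPM in R5 seeds, 440 ± 115 CPM in R5/6 seeds and 976 ± 237 CPM in R6 seeds, and in the R embryos it averaged 334 ± 36.7 CPM at T2 and 728 ± 96.5 at T5. The closest pattern to P34 was that of GLYMA_08G341500, with correlations of 0.976 and 0.959. Its level in field WT was 1258 ± 1378 CPM in R5 seeds, 8455 ± 1996 CPM in R5/6 seeds and 18737 ± 5837 CPM in R6 seeds. In R embryos at T4 it averaged 8174 ± 845 CPM and in Wt embryos at T4 18376 ± 3586 CPM. Since these genes were chosen for their likeness over the same libraries, their levels are a description. The tables give no names for these genes.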

How the data were processed

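The authors deposited 1 table per library of estimated counts, 1 value per gene and with no scaling, per the file headers. The submitters' processing notes list R 3.6.3, sleuth 0.30.0, kallisto 0.43.1 and FastQC 0.11.5, with no roles, and no label names a genome build. Estimated counts can share reads between similar genes, so LE1 and P34 may hold reads of a copy. Each table has 55,900 rows. The only row with no gene name held 4 counts or fewer and was dropped.

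Counts were rounded to whole numbers, filtered with filterByExpr, scaled by TMM and tested with edgeR 4.0.16 (quasi-likelihood F-test, two-sided, in R 4.3.3), with Benjamini-Hochberg adjustment over all genes at 0.05. Field libraries (27, in 9 groups, 38,914 genes) and greenhouse libraries (36, in 12 sets, 34,548 genes) were fitted separately. The procedure was tested on simulated counts before use. The SE of a fold change was computed from its size and F value. Alternatives were DESeq2 1.42.0, total counts as the only scaling, no filter, libraries above 10 M counts, a fit of the compared libraries alone, a replicate block, and each library left out in turn. Ratios of LE1 to P34 counts were tested by exact permutation within strata (Python 3.11.15, numpy 2.4.6, pandas 2.3.3, scipy 1.17.1). Plots used matplotlib 3.10.9. The genes most alike were ranked by the lower of 2 Pearson correlations of log2(TMM-normalized CPM + 1), over genes with a mean of at least 5 CPM.

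Replicates were separate plots or plants per the labels' protocols. That the same plots may have been sampled at several stages was not modelled. The genes, lists and tests were chosen with earlier results of these data known. Lists of pathway genes and tissue markers could not be matched to the identifiers and were not used. The rule for named genes took both members and the genes most alike to each, of which the first is printed.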

Additional observations from a re-analysis of the deposited data

How the results depend on the processing

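Of 84 results with a test, 25 passed the threshold, and none of these 25 changed direction under any alternative that was run. Of the other 59, 23 changed direction somewhere, always without passing there. Values are log2 differences, with adjusted p where a call changed.

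With total counts as the only scaling, calls ended for LE1 in Wt T3 against T2 (0.52, adjusted p = 0.759), Wt T5 against T2 (0.63, adjusted p = 0.376), G T5 against T2 (0.57, adjusted p = 0.439) and labelled WD-1 against WT at 27 DAP (-0.70, adjusted p = 0.180), and for P34 in G T5 against T2 (0.60, adjusted p = 0.538) and labelled WD-1 at 27 DAP (-0.66, adjusted p = 0.323). Calls were gained for LE1 in R against Wt at T2 (-1.69, adjusted p = 0.000413) and T3 (-1.29, adjusted p = 0.00837) and in R against G (-1.43, adjusted p = 1.57e-08). Direction turned for LE1 in R against Wt at T5 (-0.59), WD-1 against W-1 (0.14), W-1 against WT over stages (-0.051) and labelled WD-2 over 4 days (-0.17), and for P34 in W-1 at R5/6 (-0.057) and labelled WD-2 over 4 days (-0.25). This scaling moved the median of all genes by up to 1.52, and the number of genes called by over 1.5 times in 26 of 39 comparisons (4011 against 9682 for Wt T5 against T2, and 7878 against 16,068 for G against Wt over T2 to T5). The numbers moved that far in 8, 7, 3, 2 and 0 comparisons with the compared libraries alone, libraries above 10 M, DESeq2, no filter and the block.

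DESeq2 gained P34 in Wt T5 against T2 (0.71, adjusted p = 0.0140) and turned LE1 in labelled WD-2 at 27 DAP (-0.0047). Without the filter LE1 in Wt T3 against T2 lost its call (0.70, adjusted p = 0.0974). With libraries above 10 M, calls ended for P34 in WD-1 R6 against R5 (6.00, adjusted p = 0.0567), LE1 in Wt T3 against T2 (0.68, adjusted p = 0.0983) and LE1 in R against Wt over T2 to T5 (-0.25, adjusted p = 0.0968). There the direction turned for P34 in WD-1 at R6 (0.029), W-1 at R6 (0.056) and W-1 at R5/6 (-0.61), LE1 in WD-1 over stages (-0.23), and the log2 ratio in G against Wt (-0.032) and T5 against T2 (-0.089). With the compared libraries alone, P34 passed in Wt T5 against T2 (0.71, adjusted p = 0.0195) and G against Wt at T3 (0.50, adjusted p = 0.00468), and calls ended for P34 in R against Wt at T3 (-0.96, adjusted p = 0.0561) and in G T5 against T2 for LE1 (0.89, adjusted p = 0.125) and P34 (0.92, adjusted p = 0.229). The causes were not tested.

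Replicate numbers were not used as pairs in the main fits. Deviations of same-numbered libraries correlated at 0.027 on average in the field and 0.039 in the greenhouse, above 0.1 in 7 of 27 and 10 of 36 pairs. For differently numbered libraries the averages were lower, -0.012 and -0.019, with 8 of 54 and 8 of 72 pairs above 0.1. A weak pairing is thus not excluded. The fit with the replicate block changed 0 calls and turned 3 results near 0 (P34 in W-1 at R5/6, -0.048; LE1 in W-1, R6 minus R5, -0.0029; LE1 in WD-1 over stages, -0.0043).

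Leaving out 1 library at a time gave these ranges. For LE1 in the field they were -0.60 to 1.65 (W-1 at R5), -0.18 to 0.57 (W-1 over stages), -1.29 to 0.96 (W-1, R6 minus R5), -0.27 to 0.20 (WD-1 against W-1), 1.32 to 3.38 (WD-1 at R5), -0.23 to 0.54 (WD-1 over stages) and -3.73 to -1.68 (WD-1, R6 minus R5). For P34 in the field they were -2.80 to 3.07 (W-1 at R5), -0.48 to 0.48 (W-1 at R5/6), -0.31 to 0.13 (W-1 at R6), -0.90 to 1.05 (W-1 over stages), -3.11 to 2.76 (W-1, R6 minus R5), 0.43 to 7.19 (WD-1 at R5), -0.48 to 1.78 (WD-1 over stages) and -7.60 to -0.84 (WD-1, R6 minus R5). For LE1 in the greenhouse they were -0.22 to 0.20 (G, T5 minus T2), -0.89 to -0.65 (R at T4), -0.075 to 0.17 (R at T5), -0.33 to -0.26 (R over T2 to T5), 0.64 to 0.79 (Wt T3 against T2), -0.11 to 0.11 (Wt T5 against T4) and -0.062 to 0.086 (labelled WD-2 at 27 DAP). For P34 they were 0.52 to 1.15 (G T5 against T2), -0.23 to 0.41 (G, T5 minus T2), -1.36 to -0.92 (R at T2), -1.14 to -0.77 (R at T3) and -0.089 to 0.093 (Wt T5 against T4). For the log2 ratio they were -0.40 to 0.28 (W-1 against WT), -0.029 to 0.066 (G against Wt) and -0.064 to 0.082 (T5 against T2).

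With 3 libraries per group and totals down to 1.17 M, small differences in the field were not detectable at this spread.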

Other observations

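Among the R embryos, libraries with more AtWRI1 reads also had more P34. Over the 12 R libraries, all time codes together, the log2 levels of AtWRI1 and P34 (TMM-normalized CPM) had a Pearson correlation of 0.911 and a Spearman correlation of 0.930 (permutation test with 100,000 resamples, p = 4e-05 and 6e-05, adjusted p = 0.00016 and 0.00015 over 5 relations). Without the 2 libraries farthest from the median AtWRI1 level the Pearson correlation was 0.804. For LE1 the values were 0.647 and 0.650 (permutation p = 0.021 and 0.025, adjusted p = 0.021 and 0.025), and 0.372 without the 2 farthest libraries, so that relation rests on them.

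In the 11 G libraries with AtWRI1 reads, the correlation of AtWRI1 with LE1 was 0.882 (Spearman 0.827, permutation p = 0.001 and 0.0028, adjusted p = 0.0017 and 0.0047) and 0.846 without the 2 farthest libraries. With P34 it was 0.775 (Spearman 0.727, permutation p = 0.0046 and 0.014, adjusted p = 0.0057 and 0.018) and 0.679 without them. Both sets of libraries span 4 time codes over which all of these rows also vary, and the share of the most abundant row varies with them in R. Within a library both levels were also divided by the same TMM factor (1.04 to 2.03 in G, 0.344 to 1.32 in R). That shared divisor can by itself raise a correlation. None of these was tested as a source of the correlation. The permutations mixed the time codes, so their p-values do not measure a relation among libraries of the same time code.

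Among the 9 field libraries at R5, over 3 genotypes, LE1 and P34 rose and fell together, with a Pearson correlation of 0.972 and a Spearman correlation of 0.983 (exact permutation test, p = 6.3e-05 and 5e-05, adjusted p = 0.00016 and 0.00015), and 0.952 without the 2 libraries farthest from the median. WD-1 replicate 2, the R5 library with the highest AtWRI1 level (64.4 CPM, against 17.6 CPM or less in the other R5 libraries), also had the highest LE1 and P34 levels, and WT replicate 2, with no AtWRI1 reads, had the next highest P34 level.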
